A study of Mus musculus with 10 samples.

Results

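The Mas-related G protein-coupled receptors described here are 5 genes named for mast cells, Mrgprb1, Mrgprb2, Mrgprb8, Mrgprb13 and Mrgpra4, chosen by symbol. Of these 5 symbols, 4 had a row among the 22815 symbols of the count table, and 3 (Mrgprb1, Mrgprb2 and Mrgpra4) passed the filter on low counts and entered the tests. Mrgprb8 had 16 counts over the 10 libraries and Mrgprb13 was not analysed here. The study compared lower airway mast cells that were sorted by flow cytometry from wild type C57BL/6 mice of 5 to 7 weeks, and profiled by SmartSeq2, which copies and amplifies poly(A)+ mRNA. Cells carrying the marker label B7hi or B7low came from mice given intranasal saline or house dust mite extract (HDM), 20 µL per dose with 3 µg HDM in the challenged mice, 2 doses per week for 3 weeks. There were 2 libraries of B7hi saline, 2 of B7low saline, 3 of B7hi HDM and 3 of B7low HDM. The series title speaks of inducible and constitutive mast cells, names used in this field for B7hi and B7low cells in that order. The labels do not say whether libraries of a group came from separate mice, whether mice were pooled, or how B7 was gated, so the spread behind each p-value is that among these libraries and may be technical.

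Mast cells can be triggered through IgE or, without IgE, through receptors of the Mrgpr family. In the mouse, Mrgprb2 is the receptor for basic secretagogues, substance P and other cationic peptides, and it is the functional counterpart of human MRGPRX2. Its activation couples through Gq and Gi proteins to phospholipase C, calcium entry and degranulation. The receptor is known from connective tissue mast cells, the long-lived type that stores chymase and tryptase, and is little expressed by mucosal mast cells, while most other members of the family are known from itch and touch sensory neurons.

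The receptor genes lie together on mouse chromosome 7. On GRCm38 (the build called mm10), the GENCODE annotation places Mrgprb1 at chr7:48444113-48456342 and Mrgprb2 at chr7:48550965-48558086, both on the minus strand. Each has 2 exon blocks, with 4185 and 2077 exonic bases. Mrgprb8 is a single-exon gene at chr7:48388526-48389648 on the plus strand, and Mrgpra4 a single-exon gene at chr7:47980837-47982095 on the minus strand. Mrgprb13, at chr7:48311304-48312288, is an unprocessed pseudogene in GENCODE and a neighbour of Mrgprb8. Between Mrgprb1 and Mrgprb2 lies Mrgprx2 (chr7:48478619-48499321, minus strand). Mrgprx2 is not one of the 5 chosen genes, but it held 2316 counts, more than any family gene other than Mrgprb1 (8686) and Mrgprb2 (5162), and is described beside them. Despite the shared symbol, the functional counterpart of human MRGPRX2 named above is Mrgprb2 and not this gene.

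The bases before the annotated starts of these 3 abundant genes are shown because the genes sit side by side and differed together between the populations. The sequences are RefSeq's on GRCm38.p6, on the minus strand, at chr7:48456343-48456592 for Mrgprb1, chr7:48499322-48499520 for Mrgprx2 and chr7:48558087-48558336 for Mrgprb2. Windows of 250 bases before the RefSeq start were compared. The last 51 of them are left out of the Mrgprx2 line, because GENCODE starts that gene further upstream and counts them to its first exon. Capitals in Mrgprb2 mark ACCACA, the complement of TGTGGT, a motif of RUNX factors, and capitals in Mrgprb1 mark the 6 bases that align with the ACCACA of Mrgprx2.
Mrgprb1: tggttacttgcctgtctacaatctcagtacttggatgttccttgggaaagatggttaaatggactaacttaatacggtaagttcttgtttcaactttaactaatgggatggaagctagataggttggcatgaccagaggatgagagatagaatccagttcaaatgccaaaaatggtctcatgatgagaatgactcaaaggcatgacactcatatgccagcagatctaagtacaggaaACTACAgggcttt
Mrgprx2: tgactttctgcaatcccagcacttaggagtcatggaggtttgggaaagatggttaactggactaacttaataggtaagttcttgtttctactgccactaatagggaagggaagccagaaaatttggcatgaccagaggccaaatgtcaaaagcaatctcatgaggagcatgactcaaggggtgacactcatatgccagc
Mrgprb2: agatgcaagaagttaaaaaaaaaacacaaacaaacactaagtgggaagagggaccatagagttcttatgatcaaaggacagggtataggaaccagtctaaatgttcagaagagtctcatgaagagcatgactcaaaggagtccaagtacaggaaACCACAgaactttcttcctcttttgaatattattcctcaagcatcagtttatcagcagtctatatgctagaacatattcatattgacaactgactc

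The Mrgprb1 and Mrgprx2 windows aligned over 217 bases with 86.2% identity, and Mrgprx2 and Mrgprb2 over 75 bases with 86.7% identity. The longest run shared by Mrgprb1 and Mrgprx2 was tgacactcatatgccagcagatc (23 bases). Mrgprx2 and Mrgprb2 shared tccaagtacaggaaaccaca (20 bases), which ends in the RUNX motif. That motif starts 34 bases before the RefSeq start of Mrgprx2, inside the GENCODE exon, and 96 bases before that of Mrgprb2. At the aligned place 13 bases before its start, Mrgprb1 reads ACTACA, a change of C3T from Mrgprx2 when positions are counted from 1 at the left end of the 6 bases. TGTGGT or its complement occurred in 14.0% of 32851 RefSeq promoter windows of this length, so its presence here describes the letters and no more. GATAAG, a spelling of the motif of GATA factors, was held by 6.55% of windows on either strand. CACATG, an E-box bound by MITF, was held by 12.3%. Neither spelling was found in the windows of Mrgprb1, Mrgprx2, Mrgprb2, Mrgprb8 or Mrgpra4. Other spellings of these motifs were not searched, and the Mrgprb1 line does hold agatag, another form of the GATA motif. The window of Mrgprb13 held CATGTG, the complement of CACATG, 45 bases before its start. The windows of Mrgprb8 and Mrgprb13 aligned over 191 bases with 88.0% identity.

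Sequence likeness also bears on the counts, because the reads were 25 bases long. Of all 25-base stretches of Mrgprb1 exons, 5.28% also occurred in exons of another gene, with Mrgprx2 the gene sharing the most (2.16%). The share was 0.828% for Mrgprb2, 2.05% for Mrgprx2, 7.19% for Mrgprb8 and 39.2% for Mrgpra4, for which 19.7% of all stretches occurred in Mrgpra3. The coding sequences of Mrgprb1 and Mrgprx2 were 85.1% identical, those of Mrgprb1 and Mrgprb2 73.0%, and those of Mrgpra4 and Mrgpra3 88.6%, with a shared run of 76 bases. Values of Mrgpra4 are therefore uncertain with respect to Mrgpra3, since the counting method is not given.

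Total counts ran from 525983 to 1725818 per library, so the level that a count of 0 still allows, set at 3 counts per library, was between 1.57 and 5.87 CPM (the usual count unit scaled by depth, here with library sizes adjusted by TMM; counting error only). The ribosomal transcript Rn45s took 19.7% to 28.9% of counts. The nuclear RNA Kcnq1ot1 stood apart in B7low saline 2 (6956 CPM) and B7hi HDM 2 (12130 CPM) against 806.3 to 2794 CPM in the other 8, and calls of named genes that are lost without these 2 libraries are given with their value. All 8 core mast cell markers were tested, and Kit, the stem cell factor receptor, had group means of 3331 to 5349 CPM. Over both challenges 4 of the 8 were called lower in B7hi and 0 higher, beside 6.08% and 5.8% of all genes. With saline, means in B7hi and B7low were 5186 and 20640 CPM for Cpa3. They were 750.2 and 2709 CPM for Fcer1a and 833.2 and 885 CPM for Ms4a2. Of 8 sensory neuron markers, 4 to 6 had no count in each library, and Trpv1 and Prph had none in any. The list summed to 16.26 to 43.06 CPM, and 2 of the 8 passed the count filter. Calca, of the same list, had group means of 14.37 to 23.48 CPM, and Tubb3 of 2.508 to 9.611 CPM. Macrophage markers summed to at most 6.689 CPM and neutrophil markers to at most 16.27 CPM. Itgb7, the integrin chain for which the B7 gate is named in this field, had means of 845.8 and 629.6 CPM in B7hi saline and HDM and 586.7 and 733.4 CPM in B7low. Its difference between the populations did not pass the test (mean of both challenges 0.16 ± 0.24 on the log2 scale, edgeR adjusted p = 0.732). Itgae, the alpha chain that pairs with it, was at 71.8 to 172.3 CPM in B7hi saline and 278.1 to 534.4 CPM in B7hi HDM, against 0 to 10.03 and 0 to 21.46 CPM in B7low. It was higher in B7hi over both challenges (4.93 ± 0.85 on the log2 scale, edgeR adjusted p = 0.0101).

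The first question was how far the receptors differ between the populations without allergen. In saline-challenged mice all 3 tested receptors were lower in B7hi than in B7low cells (edgeR quasi-likelihood test, Benjamini-Hochberg over 10533 genes, threshold 0.05). Among all genes tested, 3.64% were called lower in B7hi by the same rule and 2.91% higher. After HDM, 2 of the 3 were called lower against 2.15% of all genes, and over the mean of both challenges 3 of 3 against 6.08%. The median fitted log2 difference of the 3 was -6.31 with saline and -3.13 with HDM, beside 0.03 for all tested genes in each comparison. All 3 genes also had CPM ranges that did not overlap between B7hi and B7low, with saline and with HDM, where 23.4% and 10.7% of all tested genes were lower in B7hi without overlap. In these bulk samples, fewer cells that carry a transcript and less of it per cell cannot be told apart.

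Mrgprb1 was at 9.82 and 1.04 CPM in the 2 B7hi saline libraries (13 and 2 counts) and at 3100 and 1660 CPM in the 2 B7low saline libraries (1773 and 990 counts). With HDM it was at 15, 5.87 and 0.685 CPM in B7hi (24, 3 and 1 counts) and at 2110, 1330 and 1440 CPM in B7low. The lowest B7low library stood at 1330 CPM and no B7hi library passed 15 CPM. The level in B7hi was 0.229% of that in B7low with saline and 0.442% with HDM. The log2 difference was -8.88 ± 1.10 (SE; edgeR adjusted p = 0.00224) with saline, -7.72 ± 0.87 (edgeR adjusted p = 0.00213) with HDM and -8.30 ± 0.73 (edgeR adjusted p = 0.000141) over both. From the summed counts (15 against 2763 and 28 against 5880) Mrgprb1 was 510-fold lower in B7hi with saline and 194-fold lower with HDM, with 95% counting intervals of 309 to 912 and 134 to 293. The size of these differences rests on single B7hi libraries, while their direction and call do not. With saline the difference was -11.0 without B7hi saline 1 and -7.91 without B7hi saline 2, and with HDM it was -9.48 without B7hi HDM 1 and -7.09 without B7hi HDM 3. Over both challenges it was -9.37 without B7hi saline 1 and -9.19 without B7hi HDM 1. With limma-voom these 3 differences were -9.57, -8.66 and -9.11.

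Mrgprb2, the secretagogue receptor, was lower in B7hi with saline and over both challenges, and had at least 29 counts in every B7hi library. It was at 28.7 and 47.5 CPM in B7hi saline (38 and 91 counts) and at 1440 and 967 CPM in B7low saline. After HDM it was at 213, 66.5 and 19.9 CPM in B7hi and at 1150, 749 and 775 CPM in B7low. B7hi HDM 1 stood highest of the B7hi libraries, though still below every B7low library. B7hi cells held 3.16% of the B7low level with saline and 11.2% with HDM. The difference was -4.97 ± 1.00 with saline (edgeR adjusted p = 0.0285) and -4.05 ± 0.63 over both challenges (edgeR adjusted p = 0.0057). With HDM it was -3.13 ± 0.75 and did not pass the test (edgeR adjusted p = 0.0855). These calls for Mrgprb2 turn on single libraries. With saline it no longer passed when any 1 of the 4 saline libraries was left out (adjusted p = 0.233 and 0.169 without B7hi saline 1 and 2, 0.096 and 0.0757 without B7low saline 1 and 2) and without both libraries of high Kcnq1ot1 (0.0851). The HDM difference passed without B7hi HDM 1 (-4.49, adjusted p = 0.000299) or B7hi HDM 3 (-2.63, 0.00834) and with DESeq2 (0.00159) or limma-voom (0.00092), and the call over both challenges was lost without B7hi saline 1 (0.0634). Without B7hi HDM 1 the difference over both was -4.74.

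Mrgpra4, of the A subfamily, had far fewer counts (217 in all). It had 1 count in each B7hi saline library (0.756 and 0.522 CPM) and 34 and 33 counts in the B7low saline libraries (59.4 and 55.2 CPM). After HDM it was at 6.88, 3.91 and 3.42 CPM in B7hi (11, 2 and 5 counts) and at 38.0, 23.4 and 41.7 CPM in B7low (28, 36 and 66 counts). Both B7hi groups lay below both B7low groups with no overlap, as did 4.94% of all tested genes. From the counts, Mrgpra4 was 92.7-fold lower in B7hi with saline, with a 95% counting interval of 24.7 to 781 because only 2 counts stand in B7hi, and 6.69-fold lower with HDM (4.07 to 11.6). Both differences passed the test (edgeR adjusted p = 8.11e-05 with saline and 0.00318 with HDM), and with HDM the fitted difference was -2.77 ± 0.47 on the log2 scale.

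Mrgprb8 had too few counts for the main test. It had 0 and 1 counts in B7hi saline, 2 and 4 in B7low saline, 1, 0 and 0 in B7hi HDM, and 1, 0 and 7 in B7low HDM. Its mean levels ran from 0.208 CPM in B7hi HDM to 5.09 CPM in B7low saline, and only B7low saline 2 and B7low HDM 3 had more than 3 counts. In a fit without the count filter (19786 genes) the difference was -3.05 over both challenges with an unadjusted p of 0.0285 (edgeR adjusted p = 0.202), so no difference was detectable at this depth.

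Mrgprx2 followed the same order as its neighbours. It was at 0 and 4.18 CPM in B7hi saline (0 and 8 counts), at 797 and 401 CPM in B7low saline, at 13.8, 11.7 and 3.42 CPM in B7hi HDM and at 659, 344 and 356 CPM in B7low HDM. No B7hi library came near a B7low library. The difference was -7.91 ± 0.83 with saline (edgeR adjusted p = 0.000324) and -5.58 ± 0.60 with HDM (edgeR adjusted p = 0.000508). With saline it was -12.4 without B7hi saline 2, which leaves only the library at 0 counts and so sets no size, -7.12 without B7hi saline 1 and -7.29 without B7low saline 1. With HDM it was -6.20 without B7hi HDM 1. The call was kept in each of these fits.

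**Figure D1:**
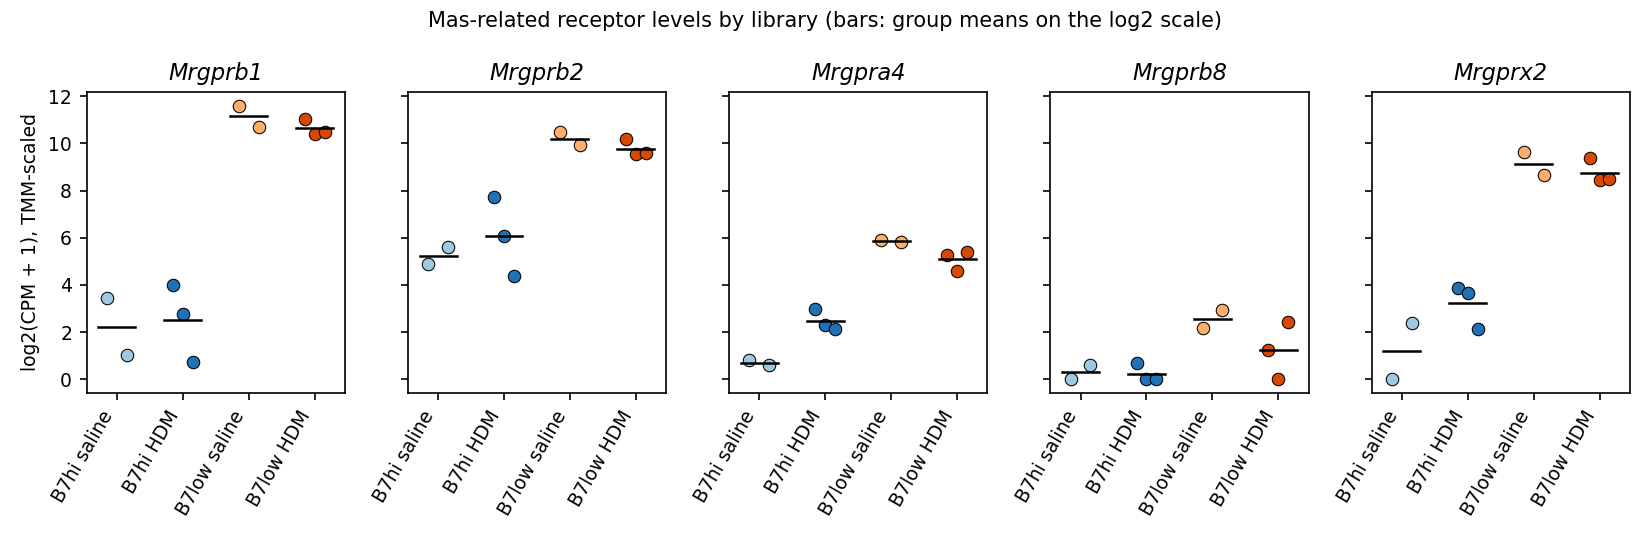
Levels of 5 Mas-related receptors in each library, as log2 of CPM plus 1 on the vertical axis, by group; points are libraries and bars are group means on that scale. For Mrgprb1, Mrgprb2, Mrgpra4 and Mrgprx2 every B7low library lies above every B7hi library, and Mrgprb8 lies near 0 in B7hi.

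Levels of different genes can be set side by side only per length of exon. Per kb of exon, Mrgprb1 and Mrgprb2 stood at like levels in B7low cells, 569 ± 243 and 579 ± 161 CPM per kb with saline (SD, n = 2) and 389 ± 101 and 429 ± 108 CPM per kb with HDM (SD, n = 3), which differ by less than their spread. Mrgprx2 came next at 127 ± 59.1 and 95.7 ± 37.7 CPM per kb, then Mrgpra4 at 45.5 ± 2.36 and 27.3 ± 7.69 CPM per kb. Mrgprb8 was at 4.54 ± 2.01 and 1.72 ± 2.02 CPM per kb in those groups. The order was different in B7hi cells. There Mrgprb2 had the highest mean with saline, 18.3 ± 6.4 CPM per kb. With HDM it was at 48.1 ± 48.5 CPM per kb and Mrgpra9 at 31.4 ± 22.1 CPM per kb, which differ by less than their spread, and in B7hi HDM 3 Mrgpra9 (17.9) stood above Mrgprb2 (9.58). With saline Mrgpra9 was at 4.44 ± 4.36 CPM per kb. Mrgprb1 was at 1.30 ± 1.48 and 1.72 ± 1.73 CPM per kb, and Mrgpre, a family gene that lies apart from the cluster, at 5.26 ± 1.77 and 6.42 ± 3.37 CPM per kb. With HDM, the B7hi level of Mrgprb1 did not differ from that of Mrgprx2 (2.04 ± 1.16 CPM per kb) beyond their spread.

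**Figure D2:**
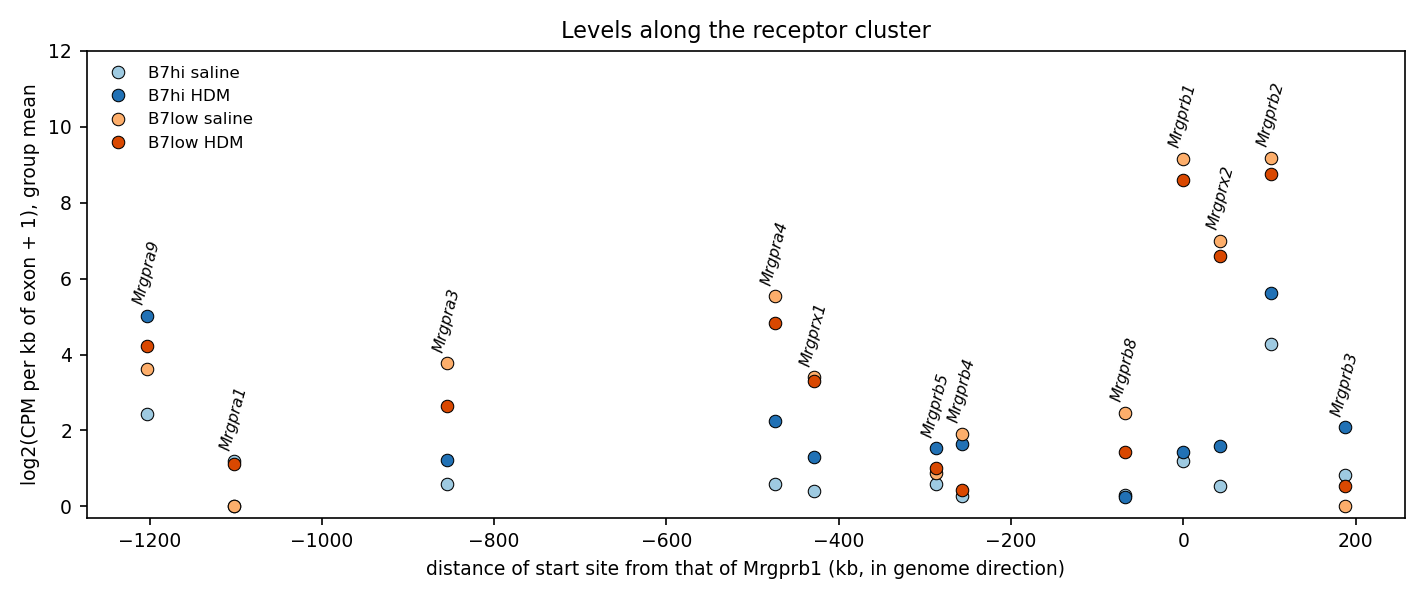
Group mean levels of family genes with at least 10 counts against the distance of their start site from that of Mrgprb1 on chromosome 7, in kb; the vertical axis is log2 of CPM per kb of exon plus 1, and Mrgpre lies outside the range. The B7low points are highest at Mrgprb1, Mrgprx2 and Mrgprb2, which span 101.7 kb, while Mrgprb8, 67.8 kb to the left, is low in all 4 groups.

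The ratio of the 2 most abundant receptors within a library needs no scaling between libraries. It was chosen for description after the levels had been seen, so it carries no test. The ratio of Mrgprb2 to Mrgprb1 counts was 0.466 and 0.584 in B7low saline and 0.545, 0.564 and 0.538 in B7low HDM. In B7hi it was 2.92 and 45.5 with saline and 14.2, 11.3 and 29.0 with HDM. The B7low libraries thus lay close together at about 1 Mrgprb2 count to 2 Mrgprb1 counts, and every B7hi library lay above them. The B7hi ratios rest on 1 to 24 Mrgprb1 counts each, and none of their spread can be read as a difference between challenges.

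**Figure D3:**
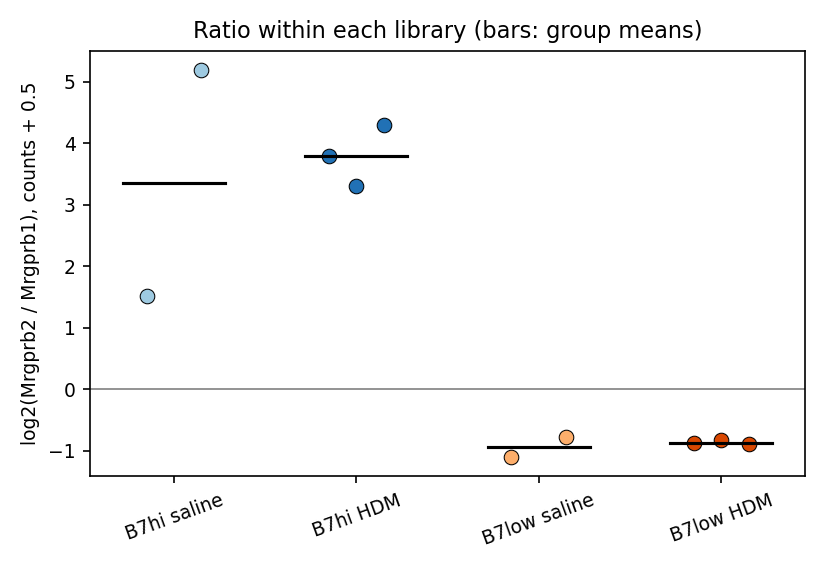
Ratio of Mrgprb2 to Mrgprb1 counts in each library, as log2 with 0.5 added to each count, by group; points are libraries and bars are group means. The 5 B7low libraries lie between -1.1 and -0.776 and the 5 B7hi libraries lie above 1.

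The make-up of the family signal differed in the same way. In B7low cells Mrgprb1 made 54.4% of all family counts with saline and 52.9% with HDM, Mrgprb2 28.4% and 29.0%, and Mrgprx2 13.6% and 14.4%. The 3 genes thus made nearly all of the family's counts in B7low, and their shares differed little between challenges. In B7hi cells Mrgprb2 made 49.5% with saline and 43.3% with HDM, and Mrgprb1 8.67% and 2.94%. Mrgpre made 25.8% and 19.1% there, and Mrgpra9 5.77% and 19.7%. These B7hi shares rest on 80 to 526 family counts per library, against 1900 to 4277 in B7low.

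**Figure D4:**
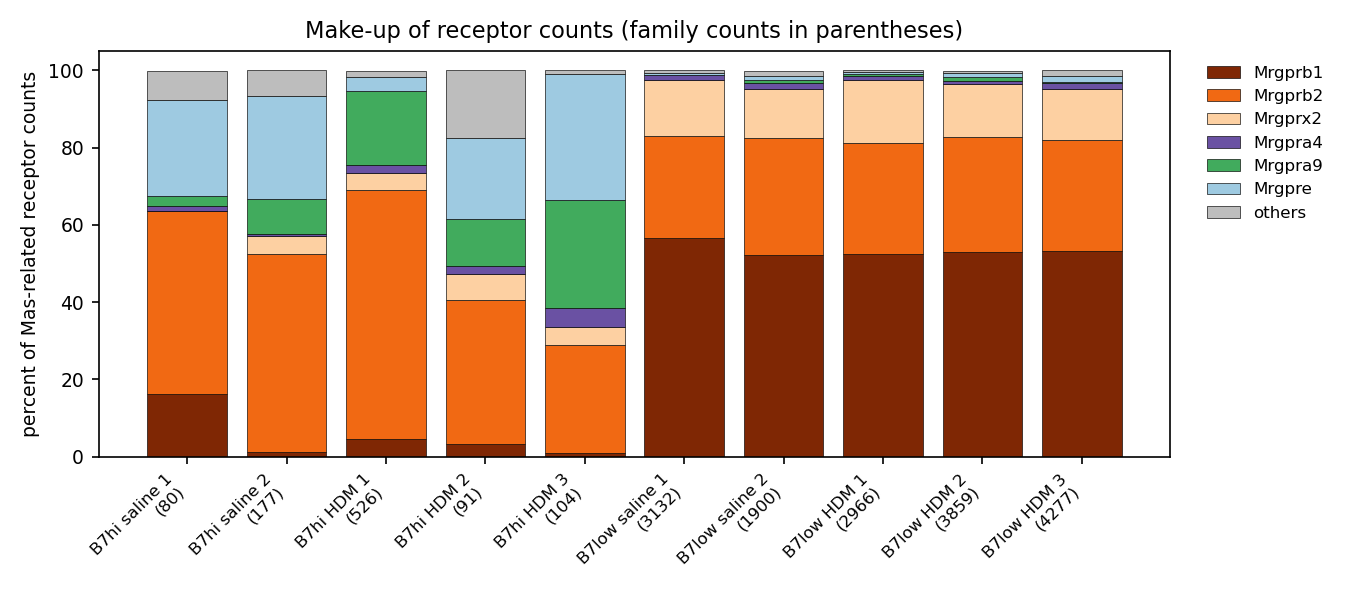
Share of each gene in the Mas-related receptor counts of each library, in percent, with the library's number of family counts in parentheses. In the 5 B7low libraries Mrgprb1, Mrgprb2 and Mrgprx2 fill nearly the whole bar, while in the 5 B7hi libraries Mrgpre and Mrgpra9 take visible shares.

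The next question was whether HDM changed the receptors within a population. None of the 3 tested members passed the test for HDM against saline in B7hi or in B7low cells. In each of these comparisons 1 of 10533 genes (0.00949%) was called by edgeR, with 435 and 956 genes at an unadjusted p under 0.05, and with DESeq2 55 and 19 were called. Mrgprb1 differed by 0.61 ± 1.07 in B7hi (edgeR adjusted p = 0.999) and by -0.55 ± 0.67 in B7low (edgeR adjusted p = 0.846), and Mrgprb2 by 1.40 ± 0.85 and -0.44 ± 0.76 (edgeR adjusted p = 0.999 and 0.904). Ranges of saline and HDM libraries overlapped for both genes in both populations. Mrgpra4 was higher with HDM in all 3 B7hi libraries (2.79 ± 0.79, unadjusted p = 0.00265, edgeR adjusted p = 0.473) and lower in all 3 B7low libraries (-0.74 ± 0.44, edgeR adjusted p = 0.641), with no overlap of ranges in either. Ranges did not overlap in the same direction for 10.2% of all tested genes in B7hi and 10.7% in B7low. The direct test of that difference, taken as the effect of HDM among B7hi cells less the one among B7low cells, gave 3.54 ± 0.91 on the log2 scale for Mrgpra4 and did not pass (unadjusted p = 0.00121, edgeR adjusted p = 0.235). For Mrgprb1 it was 1.16 ± 1.26 and for Mrgprb2 1.84 ± 1.13 (edgeR adjusted p = 0.859 and 0.712), and edgeR called 0 genes (0%) for it, with 901 at an unadjusted p under 0.05 and 44 called by DESeq2. A miss of the threshold in groups of 2 and 3 does not show that the receptors were unaffected.

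**Figure D5:**
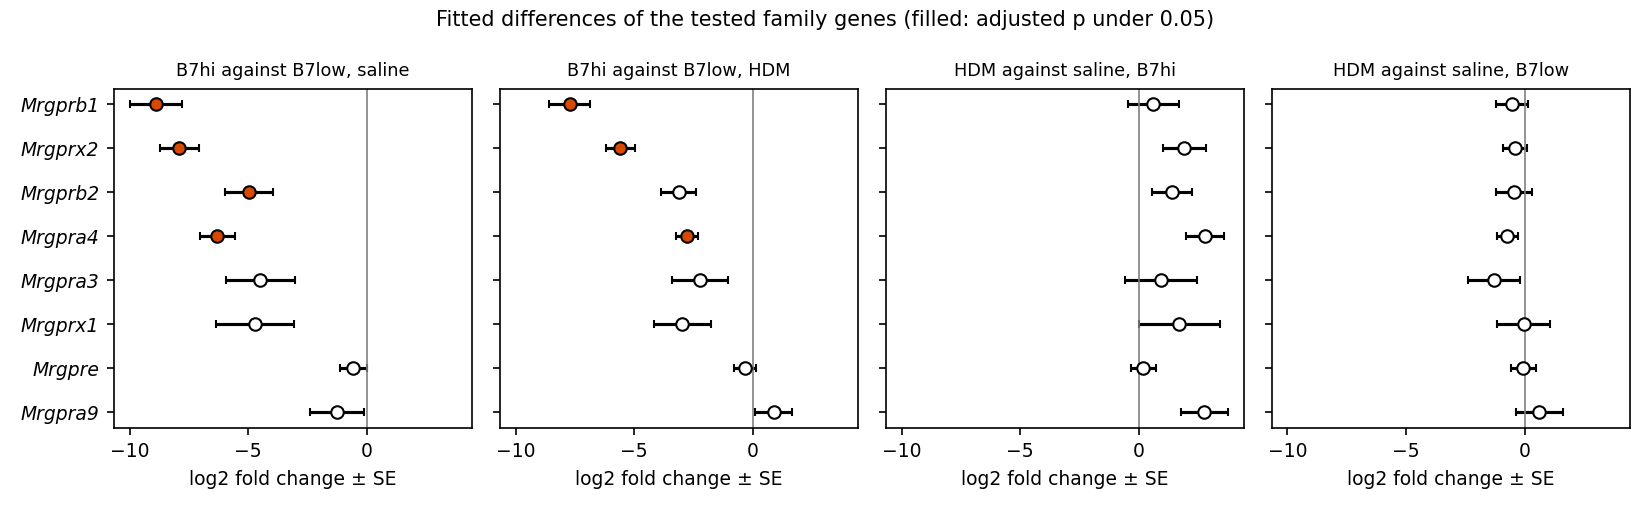
Fitted log2 fold changes with their SE for the 8 tested family genes in 4 comparisons; filled points passed the test at an adjusted p of 0.05. B7hi against B7low is far below 0 for Mrgprb1, Mrgprx2, Mrgprb2 and Mrgpra4, and no gene passed for HDM against saline.

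Several receptors were highest in the same B7hi HDM library. B7hi HDM 1 was the highest of the 3 for Mrgprb1, Mrgprb2, Mrgprx2, Mrgpra4 and Mrgpra9. Counts in B7hi HDM 1, 2 and 3 were 24, 3 and 1 for Mrgprb1 and 22, 6 and 5 for Mrgprx2. For Mrgpra4 they were 11, 2 and 5. Mrgpra3 and Mrgprx1 were highest in B7hi HDM 2, at 3.91 CPM each. Mrgpre was lowest in B7hi HDM 1, at 11.9 CPM against 37.2 and 23.3 CPM. B7hi HDM 1 also had the highest sum of the connective tissue mast cell genes Cma1, Mcpt4, Tpsb2, Tpsab1 and Adora3. That sum was 10790 CPM against 5625 and 6392 CPM in B7hi HDM 2 and 3. The sum of the 8 core mast cell markers was also highest in B7hi HDM 1, at 22110 CPM against 14900 and 13550 CPM. For the 5 connective tissue genes, B7hi saline libraries summed to 2090 and 2720 CPM and B7low libraries to 30890 to 65460 CPM. All 5 of those genes were called lower in B7hi over both challenges, beside 6.08% of all genes. For example, Mcpt4 differed by -5.26 ± 0.47 and Cma1 by -2.93 ± 0.24 on the log2 scale. With saline alone and with HDM alone 4 of the 5 were called lower, beside 3.64% and 2.15% of all genes. The difference of Mrgprb1 between populations (-8.30 ± 0.73) was further from 0 than that of any of these 5, and that of Mrgprb2 (-4.05 ± 0.63) lay between those of Mcpt4 and Tpsb2 (-3.78 ± 0.44). These differences between genes were not tested.

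Markers of other cells moved with some groups. The 4 basophil markers were all tested and summed to 781.0 to 901.6 CPM in B7hi saline, 1130 to 1224 CPM in B7low saline, 1116 to 1705 CPM in B7hi HDM and 981.3 to 1388 CPM in B7low HDM, with none at 0. The sum joins genes that went opposite ways. Mcpt8 was higher in B7hi over both challenges (means of 763.9 and 1220 CPM in B7hi saline and HDM against 123.3 and 277.9 CPM in B7low; edgeR adjusted p = 0.0121). Prss34 was lower (5.31 and 28.4 against 540.4 and 488.6 CPM; edgeR adjusted p = 3.49e-07), as was Cd200r3 (44.58 and 161.2 against 482.4 and 418.6 CPM; edgeR adjusted p = 1.21e-05). Of the 5 epithelial markers 3 were tested, and they summed to 136.8 to 187.4 CPM in B7hi saline, 10.49 to 26.75 CPM in B7low saline, 73.75 to 136.3 CPM in B7hi HDM and 56.59 to 128.3 CPM in B7low HDM, mostly from Cdh1 in every library but B7low HDM 3, with Epcam at 0 to 3 counts. In B7low HDM 3 Cdh1 was at 61.9 CPM and Sftpc at 39.8 CPM (63 counts), while Sftpc had at most 1 count in any other library. Of 5 endothelial markers 3 were tested, and they summed to 378.2 CPM in B7low HDM 1 against 59.45 to 172.2 CPM in the other 9 libraries. Cldn5 was at 165 CPM in that library and at most 18.9 CPM elsewhere. The B cell markers, 4 of 6 tested, summed to 77.09 to 547.6 CPM in B7low HDM and to 3.75 to 62.65 CPM in the other groups. T cell markers reached 92.41 CPM in B7hi saline 2 and 79.45 CPM in B7hi HDM 3. Their part in the receptor differences was not tested.

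The other family genes came from a list of 23 symbols, of which 17 had a row and 5 were tested, Mrgprx2 included. Mrgpra3, the chloroquine receptor of itch neurons, was at 0.756 and 0.522 CPM in B7hi saline, 19.2 and 13.4 CPM in B7low saline, 1.25, 3.91 and 0 CPM in B7hi HDM and 10.8, 3.25 and 6.32 CPM in B7low HDM. It was lower in B7hi over both challenges (-3.37 ± 0.94, edgeR adjusted p = 0.0276) but passed in neither challenge alone. It did not pass when B7hi saline 1 or 2 (adjusted p = 0.0945 and 0.116), B7low saline 1 (0.0639) or B7low HDM 1 (0.0654) was left out, or with the replicate number as a block (0.0574). As 28.6% of its 25-base stretches occur in other genes, and Mrgpra4 is the gene sharing the most, its counts may be partly those of Mrgpra4. Mrgprx1, known as a receptor of itch neurons for a peptide cut from proenkephalin, was likewise lower over both challenges (-3.84 ± 1.01, edgeR adjusted p = 0.0198), from 5 counts in B7hi and 60 in B7low. Leaving out B7hi saline 2 (adjusted p = 0.0995), B7low saline 1 (0.0869) or B7low HDM 3 (0.06) ended that call. Over both challenges 3 of the 5 tested genes of this list were called lower and 0 higher, beside 6.08% and 5.8% of all genes.

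Mrgpra9 and Mrgpre did not follow that order. Mrgpra9 was at 1.51 and 8.35 CPM in B7hi saline, 0 and 25.1 CPM in B7low saline, 63.1, 21.5 and 19.9 CPM in B7hi HDM and 21.7, 26.7 and 10.1 CPM in B7low HDM. Its ranges overlapped between the populations in both challenges, with a difference of -0.19 ± 0.67 over both (edgeR adjusted p = 0.89). HDM against saline in B7hi was 2.75 ± 0.98 with no overlap, as in 10.2% of all tested genes in that direction. This difference did not pass with edgeR (adjusted p = 0.938). Among the alternatives that gave an adjusted p, it passed only in the fit without the count filter (0.00684). In all, 37.7% of its 25-base stretches are shared with relatives. Mrgpre was at 11.9 to 37.2 CPM over the 5 B7hi libraries and at 20.8 to 42.3 CPM over the 5 B7low libraries, which overlap (-0.45 ± 0.37, edgeR adjusted p = 0.482). Mrgpra1 had 10 counts in all libraries together and Mrgprb3, Mrgprb4 and Mrgprb5 had 11 each, with no library above 5 counts. The other 8 symbols had at most 8 counts, and 3 of them had none.

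The receptors signal through a set of G proteins, phospholipases, calcium channels, kinases and arrestins, of which 34 were listed and 33 tested. With saline 2 of the 33 were lower in B7hi and 0 higher, with HDM 2 lower and 0 higher, and over both challenges 3 lower and 0 higher. Of all genes 3.64%, 2.15% and 6.08% were called lower in those comparisons and 2.91%, 0.693% and 5.8% higher, so the counts for these 33 are near the background. The median log2 difference of the 33 was -0.03 with saline and -0.21 with HDM, beside 0.03 for all tested genes in both. HDM against saline and the difference of HDM effects called none of the 33 with edgeR.

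Gnai1, an inhibitory G protein alpha chain, was at 0.756 and 0 CPM in B7hi saline, 108 and 36.8 CPM in B7low saline, 1.88, 0 and 0 CPM in B7hi HDM and 23.0, 16.9 and 12.6 CPM in B7low HDM. B7hi thus held 4 counts in 5 libraries and B7low 147. By counts it was 233-fold lower in B7hi with saline (1 count against 84; 95% counting interval 40.6 to 9290) and 19.4-fold lower with HDM (3 against 63; 6.35 to 96.8), with edgeR adjusted p = 0.00051 and 0.0108. The HDM call for Gnai1 was lost with limma-voom (adjusted p = 0.0893) and without B7hi HDM 3 (0.0624).

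Pik3r6, a regulatory subunit of the phosphoinositide 3-kinase that acts below G protein-coupled receptors, was at 6.80 and 3.65 CPM in B7hi saline, 83.9 and 38.5 CPM in B7low saline, 3.75, 5.87 and 6.16 CPM in B7hi HDM and 40.7, 33.8 and 56.2 CPM in B7low HDM. It differed by -3.56 ± 0.58 with saline and -3.07 ± 0.49 with HDM (edgeR adjusted p = 0.00129 and 0.0017), and groups did not overlap. Of all tested genes, 23.4% with saline and 10.7% with HDM were lower in B7hi without overlap. Gna14, an alpha chain of the Gq class, was lower over both challenges only, by a small amount (-0.60 ± 0.18, edgeR adjusted p = 0.0383), and kept that call in 8 of 18 alternatives. It was lost without B7hi saline 1 or 2 (adjusted p = 0.161 and 0.128), B7low saline 2 (0.137), B7hi HDM 2 or 3 (0.0605 and 0.0748) or B7low HDM 1 (0.0646), without both libraries of high Kcnq1ot1 (0.156), with library size alone (0.0823), without the count filter (0.122) and with the replicate block (0.0609). Gnaq, the Gq alpha chain itself, differed by -0.03 ± 0.25 over both challenges, Gnai2 by 0.09 ± 0.22 and Plcb2, a phospholipase C of blood cells, by 0.05 ± 0.20 (edgeR adjusted p = 0.96, 0.845 and 0.897).

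Genes for ligands were nearly absent from these cells. Of 10 listed ligands and precursors, among them Tac1, the precursor of substance P, 0 passed the count filter, 4 had no count in any library, and together they gave 0 to 2 counts per library.

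The genes whose levels followed each receptor most closely over the 10 libraries were taken from 6044 genes with a mean of at least 20 CPM, by Pearson's r of log2 CPM. Libraries share depth and population, so r describes the order of libraries and carries no p. For Mrgprb1 the 5 closest were Rgs13 (r = 0.989), a regulator of G protein signalling, Nkd1 (0.987), the complement gene C2 (0.985), the chymase Mcpt4 (0.98) and Sorbs3 (0.98). For Mrgprb2 they were Tulp4 (0.985), Gcsam (0.983), Chst1 (0.98), Slc35d1 (0.977) and Vps39 (0.977), and for Mrgpra4 Gcsam (0.989), Cyth3 (0.979), Vps39 (0.977), Vwa5a (0.973) and Fmn1 (0.972). Gcsam and Vps39 stand on both of the last lists. Among the receptors, r was 0.96 between Mrgprb1 and Mrgprb2, 0.957 between Mrgprb1 and Mrgprx2, 0.971 between Mrgprb2 and Mrgprx2 and 0.949 between Mrgprb1 and Mrgpra4. When group means were removed, r fell to 0.688, 0.245, 0.775 and 0.625 in that order. With Mrgprb1, Rgs13 then kept 0.86, while Nkd1, C2, Mcpt4 and Sorbs3 stood at 0.662, 0.498, 0.576 and 0.621. The 5 genes of Mrgprb2 stood at 0.8 to 0.972 (Gcsam) and those of Mrgpra4 at 0.481 to 0.861. Before that step r was over 0.95 for 62, 45 and 38 genes with Mrgprb1, Mrgprb2 and Mrgpra4, so the named genes are few of many.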

How the data were processed

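The 10 libraries of sorted mouse airway mast cells were analysed. The deposited table holds raw counts per gene symbol (22815 symbols, 10 libraries). Tools listed in the submitters' processing notes are Cufflinks 2.2.1, TopHat2 2.0.10 and DESeq2, with the build mm10 and no roles. How and on which annotation the authors counted reads, and whether strand was used, is not given in the sources. Reads of paralogs, or of overlapping or antisense genes, may therefore be mixed.

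A quasi-likelihood model (edgeR 4.0.16 on R 4.3.3; TMM scaling, robust) was fitted with 1 mean per group over all 10 libraries, after filterByExpr left 10533 symbols. The common biological coefficient of variation was 0.359. The 6 contrasts were tested two-sided with Benjamini-Hochberg adjustment over those symbols. SEs were derived from the fold change and its F value. DESeq2 1.42.0, limma 3.58.1 (voom), other scalings and filters, and leaving out libraries were alternatives. In data simulated for saline with 4-fold changes, 58.5% were recovered, and 86.5% for HDM. The simulation gave all genes the common coefficient of variation and changed only genes above a minimum mean level. These rates therefore do not hold for genes of larger spread or fewer counts. Library pairs within a group differed by 6.74 to 11.1 chi-square per degree of freedom, so none was taken for a repeat deposit of another. That does not show whether the spread is biological. Counting intervals are 95% exact binomial and cover counting error only, since amplified reads are not independent molecules.

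Coordinates and 25-base sharing come from GENCODE M21 on GRCm38, promoters from RefSeq; alignments were made with Biopython 1.88. Members and lists were chosen with earlier results of these data known. Named genes are the members, family symbols with at least 10 counts, called signalling genes, comparison and marker genes, and for each tested member the 5 genes of highest r. Signalling genes that were not called, and Itgb7, Itgae and Kcnq1ot1, were added after their values were seen.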

Additional observations from a re-analysis of the deposited data

Results flagged for a closer look

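Mrgpra4 levels with HDM lay on opposite sides of saline in the 2 populations. Each of the 3 B7hi HDM libraries (6.88, 3.91 and 3.42 CPM) lay above both B7hi saline libraries (0.756 and 0.522 CPM). Each of the 3 B7low HDM libraries (38.0, 23.4 and 41.7 CPM) lay below both B7low saline libraries (59.4 and 55.2 CPM). Ranges separated in the same direction for 10.2% of all tested genes in B7hi and 10.7% in B7low. Neither HDM effect passed by itself (edgeR adjusted p = 0.473 in B7hi and 0.641 in B7low). The test of the difference gave 3.5351 on the log2 scale (SE 0.91, unadjusted p = 0.00121), which did not pass over all genes (edgeR adjusted p = 0.235; 0.125 to 0.891 over 18 alternatives, none past the threshold). The B7hi saline level rests on 1 count in each library, below the 2.27 and 1.57 CPM that a count of 0 still allows there. For the difference of HDM effects, 901 of 10533 genes had an unadjusted edgeR p under 0.05.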

How the results depend on the processing

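The calls of lower Mrgprb1 and Mrgpra4 in B7hi with saline, with HDM and over both challenges kept their direction and side of the threshold under every alternative run (18 or 19 each), among them DESeq2, limma-voom, other scalings, no count filter, each library left out in turn, and both libraries of high Kcnq1ot1 left out, a choice made after seeing the data. The Mrgprb2 difference with saline no longer passed without the count filter (-4.87) or without both libraries of high Kcnq1ot1 (-5.24), and leaving out 1 library gave -5.40 to -4.61. Mrgprb1 ran from -11.0 to -7.91 with saline and from -9.48 to -7.09 with HDM when 1 library was left out. The Mrgprb2 difference with HDM passed with DESeq2 (-3.18) and limma-voom (-3.89), and leaving out 1 library gave -4.49 to -2.63. Over both challenges leaving out 1 library gave Mrgprb2 differences of -4.74 to -3.82. Leaving out a saline library leaves that group with 1, whose spread is assumed to be that of the other groups. Low counts limit Mrgpra4 in B7hi and Mrgprb8 everywhere.

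Genes called, on which the background shares rest, moved more; the causes were not tested beyond the number of genes or libraries used. With saline the 689 became 1078 without the filter, 370 with only the 2 groups compared, and 226 to 685 with 1 library left out (226, 312 and 444 without B7hi saline 1, B7hi saline 2 and B7low saline 1). With HDM the 299 became 507 with DESeq2, 548 without the filter, and 137 to 368 with 1 library left out (156, 147 and 137 without B7hi HDM 2, B7hi HDM 3 and B7low HDM 1). Over both challenges the 1251 became 659 to 1163 (659 and 790 without B7hi saline 1 and 2). For HDM against saline in B7hi the 1 became 55 with DESeq2, 9 with limma-voom, 89 without the filter, 0 with only the 2 groups, 5 without both libraries of high Kcnq1ot1 and 0 to 11 with 1 library left out. In B7low the 1 became 0 with DESeq2's size factors, 4 with library size alone, 19 with DESeq2, 0 with limma-voom, 112 without the filter, 3 with a minimum of 5 CPM in 2 libraries, 0 with only the 2 groups, 0 without both libraries of high Kcnq1ot1 and 0 to 13 with 1 library left out. For the difference of HDM effects the 0 became 2 with library size alone, 44 with DESeq2, 143 without the filter, 3 with the minimum of 5 CPM, 1 without both libraries of high Kcnq1ot1 and 0 to 3 with 1 library left out. Library size alone moved the median log2 difference of all genes to 0.299 for B7hi against B7low with saline and 0.15 over both challenges, to -0.138 and 0.166 for HDM against saline in B7hi and B7low, and to -0.33 for the difference of HDM effects. Of the 5 genes closest to each receptor by Pearson's r, at most 1 was among the 5 closest by Spearman's rho or with group means removed.

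Whether replicate numbers pair the libraries cannot be told from so few. Deviations of same-numbered B7hi and B7low libraries correlated at 0.0413 with saline and at 0.0219, -0.112 and -0.0491 with HDM. Those of unlike number ran from -0.124 to 0.199 with HDM. With 2 libraries per group the deviations mirror each other, so the saline value has no independent repeat. With the replicate number as a block, Mrgprb2 with HDM was at -3.65 (edgeR adjusted p = 0.0264), the genes called for HDM against saline were 6 in B7hi and 2 in B7low, and no other population call of the 3 tested members changed, while the calls over both challenges for Mrgpra3 (adjusted p = 0.0574) and Gna14 (0.0609) were lost.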
